A study of Mus musculus with 9 samples.

Results

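Siglecs are sialic acid binding lectins of the immunoglobulin superfamily. The 7 mouse Siglec genes described here are Cd22, Cd33, Siglech, Siglec1, Siglece, Siglecf and Siglecg, taken by gene symbol. They and the gene lists below were chosen with earlier results of these data known. All 7 were among the 22036 genes of the deposited expression table and among the 14955 that passed the filter on low values, with every library above it. The RNA came from flow-sorted microglia, the macrophages that reside in brain tissue, of female wild-type C57BL/6 mice; the gate of the sort was not stated. Young mice were 6 months old, middle-aged mice 15 months and old mice 23 months, with 3 libraries at each age. Every library was a pool of cells from 3 mice of the same age, and p-values therefore measure the spread between pools. All groups shared the same genotype and none was treated.

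The extracellular tip of a Siglec binds sialic acid, the sugar that caps many glycans on the cell's own surface and on its neighbours. Most family members carry an inhibitory tyrosine motif in their cytoplasmic tail, which recruits phosphatases and dampens activating signals. Siglec-H instead pairs with the activating adaptor DAP12, the product of Tyrobp, and Siglec-1 (sialoadhesin) acts mainly as an adhesion receptor. In the brain, CD22 and human CD33 are known as receptors that restrain microglial phagocytosis, and Siglec-H as a marker of mouse microglia. The Cd33 measured here is the mouse gene.

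Values are the authors' normalized expression on a log2 scale, on which a difference of 1 is a 2-fold change. The depth of each library is unknown, because read totals were not among the values used. The microglial marker gene Csf1r had mean log2 values between 18.69 and 18.92 at the 3 ages. Old replicate 3 stood apart from the other libraries along the first principal component (29.9, against -14.4 to 5.90 for the other 8), so results are also given without it. Middle-aged replicate 2 had the highest summed level of 12 neutrophil markers. Fewer cells of a type and less RNA per cell cannot be told apart in such bulk samples.

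Siglec1 lies on chromosome 2 (chr2:131069220-131086765, minus strand) and the other 6 members on chromosome 7 of GRCm38. Siglecf (chr7:43351341-43359531, plus strand), Siglecg (chr7:43408204-43418358, plus strand), Cd33 (chr7:43524216-43544428, minus strand) and Siglece (chr7:43651070-43660161, minus strand) form a cluster. Cd22 (chr7:30865402-30880342, minus strand) and Siglech (chr7:55768178-55778925, plus strand) lie outside it. The antisense gene Gm29439 overlaps exons of Cd22. Whether the authors' counting used strand is not stated, and without strand the reads of this pair cannot be told apart. Of the 50-base words in the annotated transcripts of each gene, 7.84% for Cd22, 4.64% for Siglecg, 1.32% for Siglec1 and at most 0.458% for the other 4 also occur in transcripts of another gene.

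RefSeq promoter windows on GRCm38.p6, each 300 bases around an annotated start of a gene, matched 6 of the 7 members, all but Siglec1. The Cd33 and Cd22 windows lie inside the gene spans given above, so their starts are not the outer ends of those spans. Those of Cd22 and Siglecf, the genes that rose with age, are printed with that of Cd33, because the Siglecf and Cd33 windows share a stretch. Capitals mark the longest run of bases, 16, found in both, and each sequence reads 5′ to 3′ on the strand of its gene.
Cd22 (chr7:30878979-30879278, minus strand): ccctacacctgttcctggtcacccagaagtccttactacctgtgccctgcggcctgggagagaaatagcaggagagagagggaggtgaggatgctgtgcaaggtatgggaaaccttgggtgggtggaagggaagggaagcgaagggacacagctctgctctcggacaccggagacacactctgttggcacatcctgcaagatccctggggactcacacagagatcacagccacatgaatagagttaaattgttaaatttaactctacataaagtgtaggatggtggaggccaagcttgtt
Siglecf (chr7:43351091-43351390, plus strand): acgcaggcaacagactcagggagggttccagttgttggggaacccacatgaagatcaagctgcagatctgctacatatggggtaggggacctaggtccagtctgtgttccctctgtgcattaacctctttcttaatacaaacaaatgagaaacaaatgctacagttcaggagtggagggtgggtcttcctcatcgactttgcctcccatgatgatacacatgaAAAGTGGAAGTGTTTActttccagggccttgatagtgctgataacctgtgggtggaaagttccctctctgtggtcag
Cd33 (chr7:43533122-43533421, minus strand): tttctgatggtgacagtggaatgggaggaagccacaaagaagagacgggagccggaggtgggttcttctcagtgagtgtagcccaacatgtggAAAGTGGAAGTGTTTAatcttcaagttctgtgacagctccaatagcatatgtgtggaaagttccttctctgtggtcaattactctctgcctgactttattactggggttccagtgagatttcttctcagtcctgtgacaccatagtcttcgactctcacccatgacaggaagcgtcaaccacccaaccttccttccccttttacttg
The shared run begins 27 bases before the start used for the Siglecf window and 157 bases before that used for the Cd33 window. It occurs in 2 of 32851 promoter windows, these 2. Other pairs of member windows shared runs of at most 10 bases. Searched on both strands, the PU.1 core letters GAGGAA occurred in a window of Siglecf, Siglecg, Cd33, Siglece and Siglech and not in that of Cd22, and in 28.3% of all windows. The interferon response element (GAAA and again GAAA after 2 bases) and the AP-1 letters TGANTCA occurred in none of the 6 genes' windows, beside 3.44% and 7.81% of all windows. The E-box letters CACGTG occurred in that of Siglech alone, beside 7.15%. Such matches describe letters in these windows only.

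Siglech was by far the most abundant member at every age. Per kilobase of annotated exon, its normalized level was 21355 ± 618 in young, 19077 ± 1140 in middle-aged and 16571 ± 1200 in old libraries (SD, n = 3 each). Siglece followed with 7466 ± 449, 5958 ± 476 and 5799 ± 197 per kilobase, and Cd33 with 4567 ± 82, 3890 ± 122 and 3586 ± 452. Cd22 came next with 564 ± 24, 727 ± 108 and 1166 ± 46 per kilobase. Siglecf, Siglec1 and Siglecg had the lowest levels, with young means of 249, 193 and 85.8 per kilobase. This order per kilobase was the same in each of the 9 libraries, and the ranges of neighbouring genes did not overlap at any age. It depends on the annotated exon lengths, 7771 bases for Cd33 and 1849 for Siglece, 7143 for Siglec1 and 2790 for Siglecf. Before division by length, Cd33 lay above Siglece (young log2 means 15.12 and 13.75). Siglec1 likewise lay above Siglecf (10.43 and 9.43). The closest neighbours were Siglecf and Siglec1, whose ratio was 1.07 in the library where they were closest.

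**Figure D1:**
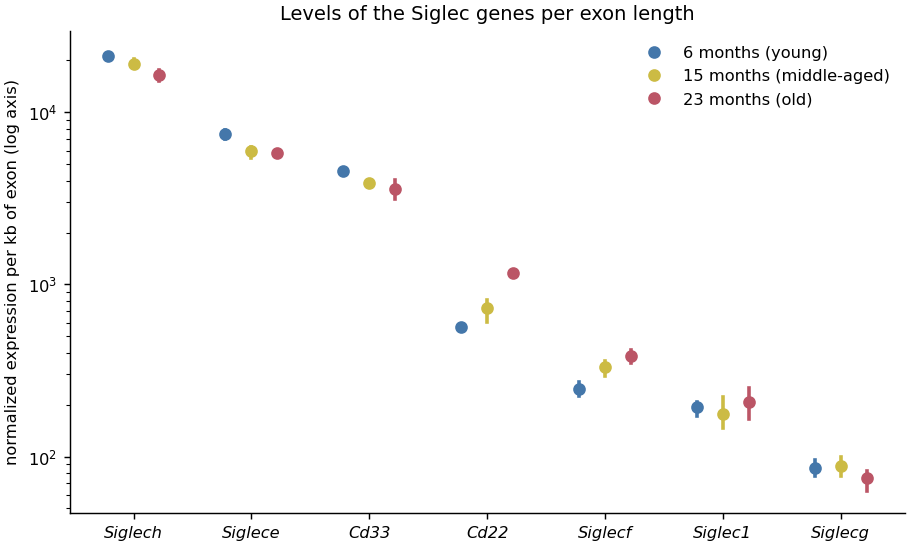
Normalized expression per kilobase of exon (log axis) for the 7 Siglec genes, with points for the mean of 3 libraries and lines for their range, at 6, 15 and 23 months. The Siglech means lie highest and the Siglecg means lowest at all 3 ages, and Cd22 has the largest ratio between old and young, with means of 564 at 6, 727 at 15 and 1166 at 23 months.

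The summed level of the 7 genes per kilobase was 34480 ± 1040 in young, 30247 ± 1724 in middle-aged and 27786 ± 1725 in old libraries (SD, n = 3 each). Within that sum, Siglech held 61.8% to 62.2% in young, 62.0% to 63.7% in middle-aged and 59.0% to 60.7% in old libraries. Cd22 held 3.88% to 4.50% in old libraries, against 1.57% to 1.75% in young libraries. Set against Cd33 alone, the Cd22 level per kilobase was 31.4%, 30.1% and 37.0% of the Cd33 level in old replicates 1 to 3, and 12.7%, 12.2% and 12.1% in young replicates 1 to 3.

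Between old and young microglia, Cd22 and Siglecf rose and Siglech fell. Cd22 doubled (2.07-fold), Siglecf rose 1.54-fold and Siglech fell to 0.775 of its young level. Siglece and Cd33 had estimates of similar size to that of Siglech, at 0.777 and 0.781 of the young level, but did not pass the threshold. Siglec1 and Siglecg were not called and their libraries overlapped between the ages. In all, 3 of 7 members were called at an adjusted p under 0.05, where 2.00% of all 14955 genes tested were called (limma moderated test, Benjamini-Hochberg). The 2 called higher stand beside a background of 1.70%, and the 1 called lower beside 0.301%. Over the 7 members the median log2 change was -0.19, and over all genes it was -0.01.

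**Figure D2:**
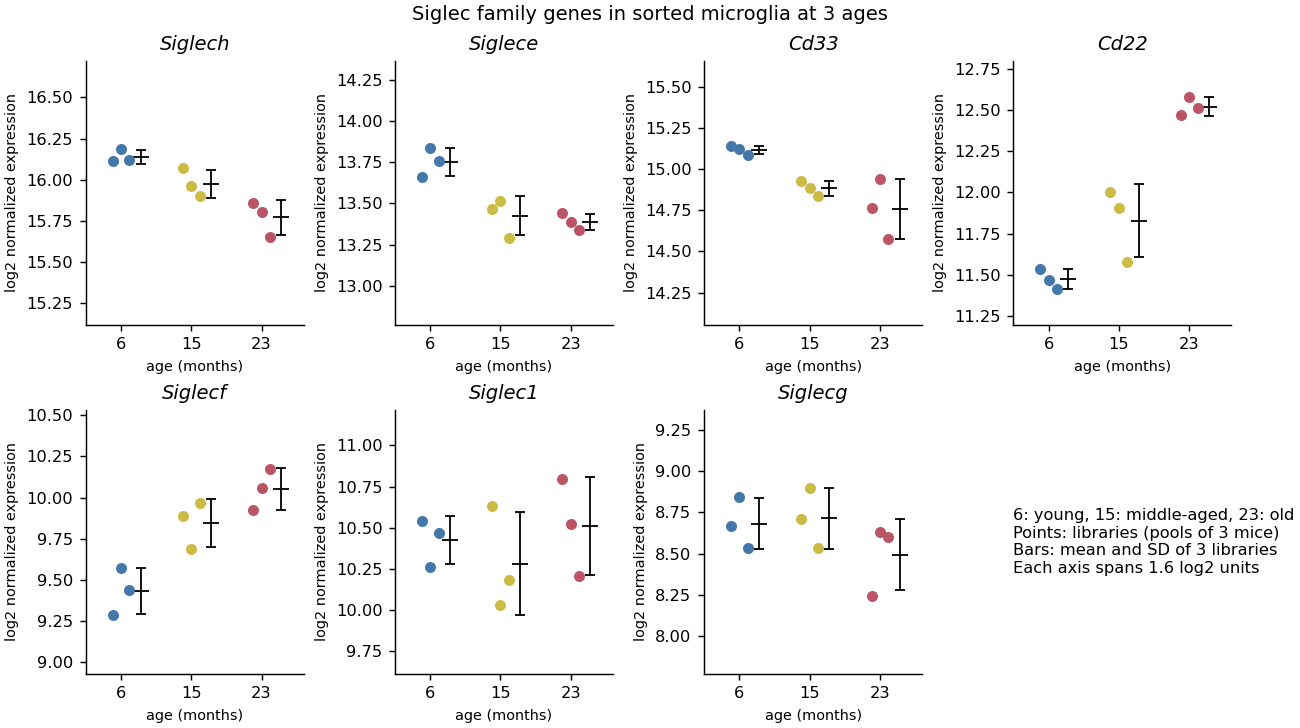
Log2 normalized expression of each Siglec gene by age in months, with points for the 3 libraries of each age and bars for their mean and SD, each axis spanning 1.6 log2 units. All 3 old Cd22 values lie above all middle-aged ones, and these above all young ones, and Siglech takes the reverse order.

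Cd22 encodes an inhibitory co-receptor best known from B cells. Its log2 values were 11.538, 11.466 and 11.415 in young libraries, 12.0015, 11.908 and 11.577 in middle-aged libraries and 12.468, 12.581 and 12.514 in old libraries (replicates 1 to 3). No library of one age overlapped another age, and middle-aged replicate 3 lay close to the young values. The change from 6 to 23 months was 1.05 ± 0.11 on the log2 scale (SE, n = 3 per group), with a 95% interval of 0.80 to 1.30 and adjusted p = 0.00103 (limma, Benjamini-Hochberg). By its p-value Cd22 stood at place 33 of the 14955 genes. The change was 1.05 ± 0.13 without old replicate 3 (adjusted p = 0.00359, limma). In the authors' deposited table the log2 fold change of Cd22 was 1.41 (adjusted p = 8.4e-33). A test over the 3 ages together gave Cd22 an adjusted p of 0.00339 (limma F test), where 0.836% of all genes were called.

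Siglecf encodes the inhibitory receptor that marks eosinophils and alveolar macrophages in mice. Its log2 values were 9.29, 9.57 and 9.44 in young, 9.89, 9.69 and 9.97 in middle-aged and 9.92, 10.06 and 10.18 in old libraries. Middle-aged and old libraries overlapped, and all 6 lay above the 3 young ones. The change in old against young libraries was 0.62 ± 0.12 (adjusted p = 0.0311, limma). That call was lost when young replicate 1, 2 or 3 was left out (adjusted p = 0.134, 0.0557 and 0.152), and without middle-aged replicate 1 (0.0511), old replicate 2 (0.0574) or old replicate 3 (0.0682). The estimate itself stayed between 0.55 and 0.69 in those fits. The authors' deposited table gave a log2 fold change of 0.93 (adjusted p = 0.000111).

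Siglech, the DAP12-coupled member, had log2 values of 16.11, 16.19 and 16.12 in young, 16.07, 15.96 and 15.90 in middle-aged and 15.86, 15.80 and 15.65 in old libraries. The 3 ages did not overlap. The change in old against young libraries was -0.37 ± 0.08 (adjusted p = 0.0439, limma). This p was just inside the threshold. Leaving out young replicate 1, 2 or 3 gave adjusted p = 0.119, 0.119 and 0.18, and leaving out middle-aged replicate 1 or 2 gave 0.0573 and 0.0772. Leaving out old replicate 1, 2 or 3 gave 0.0787, 0.0687 and 0.0938, the last with a change of -0.31. The call remained without middle-aged replicate 3. The authors' deposited table gave -0.46 (adjusted p = 0.00159).

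Siglece and Cd33 encode receptors found on neutrophils, monocytes and macrophages, and human CD33 is an Alzheimer's disease risk gene. Siglece had log2 values of 13.66, 13.84 and 13.76 in young, 13.47, 13.51 and 13.29 in middle-aged and 13.44, 13.38 and 13.34 in old libraries. Cd33 had 15.14, 15.12 and 15.09 in young, 14.93, 14.89 and 14.84 in middle-aged and 14.76, 14.94 and 14.57 in old libraries. For each gene the young libraries lay above the other 6, while the middle-aged and old ones overlapped. Old against young, the log2 change was -0.36 ± 0.09 for Siglece (adjusted p = 0.0697) and -0.36 ± 0.09 for Cd33 (adjusted p = 0.0841, limma). Their 95% intervals, -0.56 to -0.17 and -0.56 to -0.15, overlap that of Siglech (-0.54 to -0.19). Cd33 was called without old replicate 2 (-0.45, adjusted p = 0.037), the only such call in 9 fits with 1 library left out. Without old replicate 3, the library that stood apart, the Cd33 change was -0.26, the closest to 0 of those fits, and not called. Cd33 and Siglecf, whose promoter windows share the printed run, had estimates of opposite sign. Any bearing of the run on expression was not tested. The authors' deposited table called both Siglece and Cd33 lower, at -0.47 for Siglece (adjusted p = 0.00084) and -0.42 for Cd33 (adjusted p = 0.0383).

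Siglec1 is a macrophage receptor gene known to respond to interferon. Its log2 values were 10.54, 10.26 and 10.47 in young, 10.63, 10.03 and 10.19 in middle-aged and 10.80, 10.52 and 10.21 in old libraries. Siglecg, a gene of B cells and some myeloid cells whose product recognises CD24, had 8.67, 8.84 and 8.54 in young, 8.71, 8.90 and 8.53 in middle-aged and 8.24, 8.63 and 8.60 in old libraries. Libraries of the 3 ages were interleaved for Siglec1, and for Siglecg old replicate 1 was the lowest library and the other 8 overlapped between the ages. Old against young, the 95% interval of the log2 change ran from -0.32 to 0.48 for Siglec1 and from -0.50 to 0.12 for Siglecg, so 1.40 times the young level for Siglec1 and 0.706 of it for Siglecg lie within those limits. Siglec1 had the widest spread of the 7 genes in middle-aged and old libraries, with SDs of 0.31 and 0.30 on the log2 scale.

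Counted by libraries, 5 of 7 members had no overlap between old and young, as had 24.5% of all genes. Cd22 and Siglecf were the higher ones, and Siglech, Siglece and Cd33 the lower ones. The authors' deposited table called these same 5 members, where it called 7.62% of all genes with an adjusted p. It called 4.72% of genes higher and 2.90% lower.

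In middle-aged against young microglia Siglecf and Cd22 had the highest estimates and Siglece the lowest, but 0 of 7 members were called, where 0.114% of all genes were called (limma, Benjamini-Hochberg). An unadjusted p under 0.05 was reached by 4 of the 7 members and by 1698 of all genes. The log2 change was 0.41 ± 0.12 for Siglecf, 0.36 ± 0.11 for Cd22, -0.33 ± 0.09 for Siglece, -0.23 ± 0.09 for Cd33 and -0.16 ± 0.08 for Siglech, with adjusted p of 0.216 to 0.475 (limma). These 5 genes did not overlap between the ages, and neither did 21.6% of all genes. The authors' deposited table called 3 members at this step, Siglecf higher (0.56, adjusted p = 0.0296) and Siglece and Cd33 lower (-0.39, adjusted p = 0.0301, and -0.29, adjusted p = 0.0205). It called 5.78% of all genes, 3.26% higher and 2.53% lower. Cd22 was not called in the authors' deposited table (0.42, adjusted p = 0.0749). Both comparisons with young microglia share the young libraries.

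From 15 to 23 months Cd22 had the largest estimate of the family, 0.69 ± 0.11 on the log2 scale or 1.62-fold, just outside the threshold (adjusted p = 0.0532, limma). Siglecf had 0.21 ± 0.12 and Siglec1 0.23 ± 0.18, while Siglecg had -0.22 ± 0.14, Siglech -0.20 ± 0.08, Cd33 -0.12 ± 0.09 and Siglece -0.04 ± 0.09. Of the 7 members 0 were called, where 0.174% of all genes were called, 0.160% higher and 0.0134% lower (limma). An unadjusted p under 0.05 was reached by 2 of the 7 and by 1522 genes in all. Only Cd22 (higher) and Siglech (lower) had no overlap between the old and middle-aged libraries, and of all genes 12.9% had none. The authors' deposited table called Cd22 alone among the members (0.73, adjusted p = 0.000628), where it called 1.32% of genes, 0.859% higher. Whether the later step differed from the earlier one was tested directly, as the change from 15 to 23 months minus that from 6 to 15 months. That difference was 0.34 ± 0.20 for Cd22 and 0.29 ± 0.15 for Siglece, and 0 of 7 members and 0 of all genes passed (adjusted p of 0.691 or more for the members, limma), with 0 members at an unadjusted p under 0.05.

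**Figure D3:**
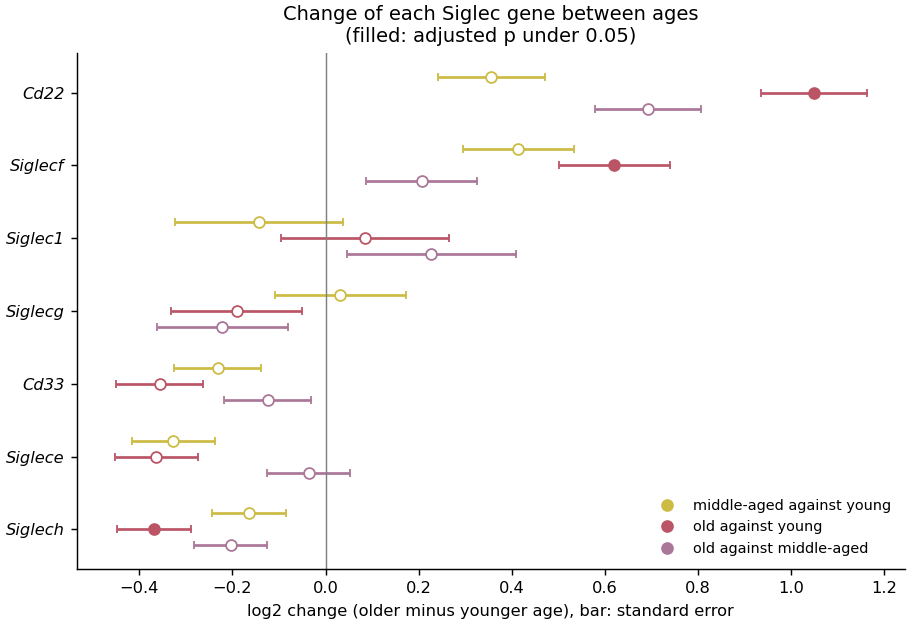
Log2 change of each Siglec gene for the 3 pairs of ages, with bars for the standard error and filled points for an adjusted p under 0.05. Filled points are Cd22 (1.05), Siglecf (0.62) and Siglech (-0.37), all in old against young.

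The calls differed in how well they held. Cd22 in old against young was called in all 19 alternative fits, with adjusted p between 3.03e-05 and 0.0112. Siglecf was called in 11 of the 19 and Siglech in 8, Siglece and Cd33 in 2 and 3, and Siglecg and Siglec1 in 0 of them.

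**Figure D4:**
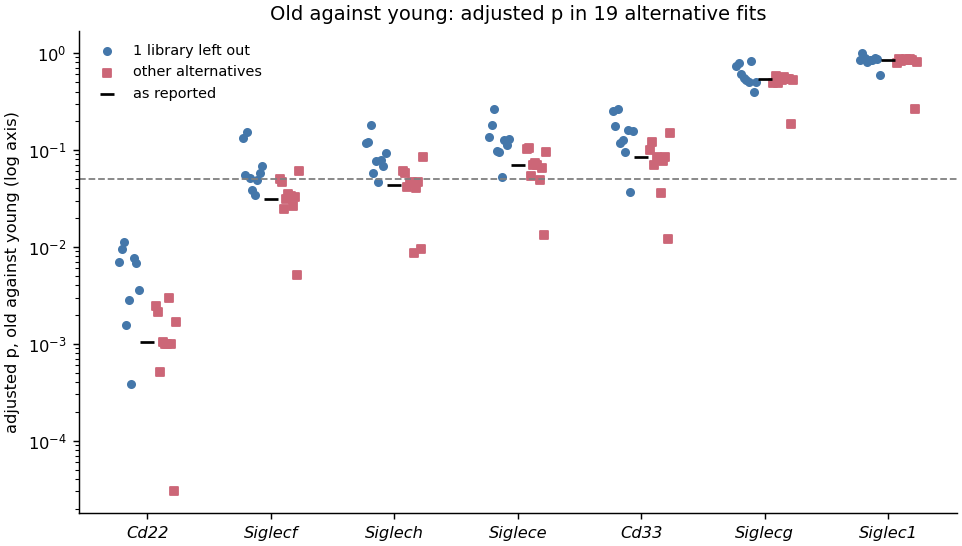
Adjusted p for old against young (log axis) of each Siglec gene as reported (black dash), in 9 fits that each left out 1 library (circles) and in 10 other alternatives (squares), with the dashed line at 0.05. All Cd22 points lie under the line, and points of Siglecf, Siglech, Siglece and Cd33 lie on both sides of it.

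Cd22 and Siglecg are B cell genes, and 13 B cell markers were measured beside them. In old against young libraries 0 of the 13 were called higher and 1 lower (Bank1, -0.64 ± 0.11, adjusted p = 0.0218, limma), with a median log2 change of 0.02. The shares over all genes tested were 1.70% called higher and 0.301% called lower. The Bank1 call was lost without young replicate 1, 2 or 3 (adjusted p = 0.0997, 0.0676 and 0.112), old replicate 1 (0.0514) or old replicate 3 (0.0503). Cd79a, which encodes a signalling chain of the B cell receptor, had log2 values of 7.99, 8.66 and 8.46 in old against 8.05, 7.95 and 7.91 in young libraries, with a change of 0.40 ± 0.16 that was not called. In old replicate 1 Cd79a lay within the young values, and Cd22 was at 12.468 in that library. The summed normalized level of the 13 markers, most of it Ighm, ranged from 74738 to 90003 in old and from 81769 to 91105 in young libraries.

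**Figure D5:**
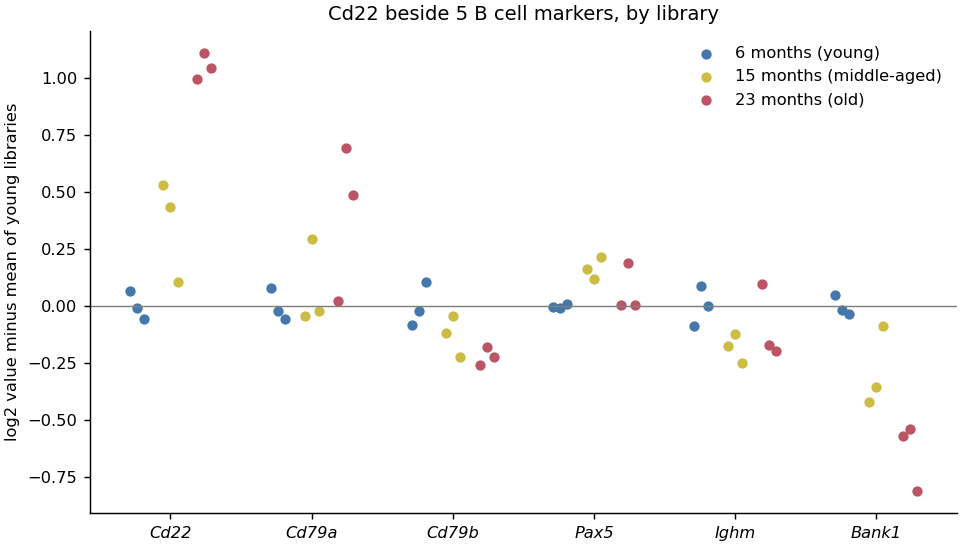
Log2 value of Cd22 and of 5 B cell markers in each library minus the mean of the young libraries, coloured by age. All old Cd22 points lie near 1, while 1 of the old Cd79a points lies among the young ones and Bank1 points of old libraries lie below 0.

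Markers of the other cells that carry Siglecs moved in their own ways. Their counts, here and in the next paragraph, stand beside 1.70% of all genes called higher and 0.301% lower in old against young. Of 8 eosinophil markers, 0 were called and the median log2 change in old against young was -0.28. The granule gene Prg2 had a change of -1.46 ± 0.40 and Epx -0.93 ± 0.30, neither called, and their summed level with the other 6 was 1546 to 2220 in old and 2750 to 4013 in young libraries, while Siglecf was higher in old libraries. Of 12 neutrophil markers 0 were called, with a median of -0.03, and their summed level was 220217 to 500122 in old and 270281 to 501186 in young libraries. Middle-aged replicate 2, at 1006840 the highest for neutrophil markers, had the highest Siglece value of its age, 13.51. Young replicate 2, the highest young library at 501186, also had the highest Siglece value of its age, 13.84. Old replicate 3, the highest old library at 500122, had instead the lowest Siglece value of its age, 13.34. Of 10 monocyte markers 3 were called higher (Plac8, Ms4a4c and Fn1) and 0 lower in old against young, with a median of 0.42, and their summed level was 45864 to 77566 in old and 36780 to 52766 in young libraries.

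Of 12 border macrophage markers, 2 were called lower (Mgl2 and Stab1) and 0 higher in old against young libraries, with a median log2 change of -0.46, and their summed level was 92416 to 117880 in old and 140797 to 150072 in young libraries. Siglec1, which border macrophages express, was not called beside them. Of 11 microglial markers 1 was called higher (C1qa) and 1 lower (Fcrls), with a median of -0.19, and their summed level was 1598190 to 1833410 in old and 1914380 to 2199840 in young libraries, in the same direction as Siglech. The plasmacytoid dendritic cell genes Ccr9, Klk1 and Dntt were below the filter, and 0 of the 7 such markers tested were called (median -0.02). Of 6 plasma cell markers 1 was called lower (Tnfrsf17) and 0 higher, with a median of 0.12 and 3 of the 6 estimates above 0. Their summed level was 6742 to 7580 in old and 7121 to 7931 in young libraries. Of 8 oligodendrocyte markers 0 were called, with a summed level of 7190 to 10119 in old and 6482 to 7172 in young libraries. Of these marker calls, Fn1 held in 9 of 9 fits with 1 library left out, C1qa in 8 (not without young replicate 3), Bank1 and Plac8 in 4 each, Mgl2 and Ms4a4c in 3 each, Stab1 and Tnfrsf17 in 2 each and Fcrls in 0. The part of these other cells in the Siglec values was not tested. Mag, the oligodendrocyte member of the Siglec family, had a log2 change of 0.03 ± 0.15 in old against young.

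Signalling partners of Siglecs were called in both directions. Of 20 tested in old against young libraries, 2 rose, 1 fell and 17 were not called, with a median log2 change of -0.04 beside -0.01 over all genes. By the same test 2.00% of all genes were called, 1.70% higher and 0.301% lower. Fgr, a Src family kinase gene, rose 1.90-fold (0.93 ± 0.12, adjusted p = 0.00347). Tyrobp, encoding the adaptor of Siglec-H, rose 1.41-fold (0.50 ± 0.10, adjusted p = 0.0331), with values of 16.21, 15.98 and 16.34 in old against 15.77, 15.71 and 15.57 in young libraries. So Siglech and its adaptor gene were called in opposite directions. Inpp5d, which encodes the inositol phosphatase SHIP1, fell to 0.773 of its young level (-0.37 ± 0.08, adjusted p = 0.048, limma). With 1 library left out, Fgr was called in 9 of 9 fits. Tyrobp was called only without middle-aged replicate 3 or old replicate 2, and Inpp5d only without middle-aged replicate 3, with adjusted p up to 0.18 and 0.221 in the other fits. In middle-aged against young and in old against middle-aged libraries 0 of the 20 were called, beside 0.114% and 0.174% of all genes (limma).

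On the ligand side, St8sia6 was the 1 gene of sialic acid metabolism called in any pair of ages. It encodes a sialyltransferase whose disialylated products are known as ligands of Siglec-E in mice. Its log2 values were 10.01, 9.88 and 10.19 in young, 10.91, 10.90 and 10.65 in middle-aged and 11.26, 11.34 and 11.37 in old libraries, with no overlap between the ages. It rose 2.45-fold in old against young (1.30 ± 0.11, adjusted p = 0.000228) and 1.73-fold in middle-aged against young (0.79 ± 0.11, adjusted p = 0.0286, limma). The call at 23 months was made in 9 of 9 fits with 1 library left out, and that at 15 months only without middle-aged replicate 3 or old replicate 3, with adjusted p up to 0.17 in the others. The other 14 sialyltransferase genes tested were not called, and the median over all 15 in old against young was -0.07. Among all genes tested, 2.00% were called in old against young and 0.114% in middle-aged against young. St3gal1 had 0.47 ± 0.13 and St3gal6 -0.29 ± 0.09, neither called. Of 10 genes of sialic acid synthesis and turnover 0 were called (median -0.02), with Npl at -0.25 ± 0.10, Renbp at 0.24 ± 0.11 and Cmas at 0.18 ± 0.10. Of 4 sialidase genes and partners 0 were called, with the lysosomal sialidase gene Neu1 at 0.29 ± 0.11, its protective partner Ctsa at 0.11 ± 0.08 and Neu3 at -0.20 ± 0.12.

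Among 8 genes of proteins known to carry Siglec ligands, 2 rose and 0 fell in old against young libraries, with a median of 0.27. Over all genes tested the called shares were 1.70% higher and 0.301% lower, and the median was -0.01. Cd52, a small glycoprotein whose soluble form binds human Siglec-10, rose 2.26-fold (1.18 ± 0.10, adjusted p = 0.000228), and was also called at 15 months (0.75 ± 0.10, adjusted p = 0.0252). Lgals3bp, a secreted glycoprotein that binds human Siglecs, rose 1.92-fold (0.94 ± 0.12, adjusted p = 0.0033, limma). Both were called at 23 months in 9 of 9 fits with 1 library left out. The call of Cd52 at 15 months was made only without middle-aged replicate 3, old replicate 2 or old replicate 3, with adjusted p up to 0.176 in the others. Ptprc, encoding CD45, a ligand carrier of CD22, had 0.26 ± 0.09 and was not called. Of 14 other immune receptors, most of them with an inhibitory motif, 1 rose and 0 fell, with a median of 0.11. That gene was Pdcd1, encoding PD-1, which rose 3.32-fold (1.73 ± 0.13, adjusted p = 9.06e-05, limma), a call made in 9 of 9 fits with 1 library left out. Milr1 had 0.60 ± 0.14 and Pilra 0.55 ± 0.14, neither called.

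Across the 9 libraries, the genes whose values followed Cd22 most closely were Socs2, Cd48, Lgals3bp, Plau and Rab7b, with Pearson's r of 0.976 to 0.981. Socs2 is a cytokine signalling suppressor gene, Cd48 a leukocyte adhesion ligand gene, Plau the urokinase gene and Rab7b a small GTPase gene of late endosomes. Closest to Siglech were Tmem53, Slc2a5 (a fructose transporter gene of microglia) and Orc3, with r of 0.968 to 0.988. Cd33 was followed by Tmem206, Gpr155 and Lpcat3 (0.959 to 0.963), Siglece by Nop2 and Mtfr1l (0.969 and 0.953) and Siglecf by Aaed1, Hnrnpa1 and Farsb (0.951 to 0.968). Siglec1 was followed by Flvcr2, Dusp5 and Apbb1 (0.923 to 0.949) and Siglecg by Thbs1, Acsl1 and Pinx1 (0.879 to 0.940). These are the highest values among all genes tested, over libraries that share the 3 ages, and they describe likeness in these libraries only.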

How the data were processed

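RNA was sequenced from 9 libraries of sorted microglia, made with the SMARTer Ultra Low kit per the labels' protocols. Base calling with CASAVA, trimming software cutadapt 1.13, the aligner STAR 2.5.3, build mm10 and DESeq2 1.16.1 are named in the submitters' processing notes. The deposited per-library values are on a log2 scale, and the sources used here do not state the authors' transformation, read counter or annotation. Per the file headers, the authors' comparison tables hold a mean signal, a log2 fold change, its error, a test score and raw and adjusted p-values per gene.

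The log2 values were used as deposited, so fold changes are those of the authors' transformed values and can be smaller than ratios of counts. Genes with at least log2 of 10 (3.32) in 3 libraries were tested, 14955 of 22036. A model with 3 ages as groups was fitted in limma 3.58.1 (R 4.3.3) with a variance trend, and p-values were adjusted by Benjamini-Hochberg over all genes at 0.05. An exact test of 3 against 3 libraries cannot go below 0.1. The fit was tested on simulated data. The members and gene lists were chosen with earlier results of these data known. Named list genes were those called in any pair of ages, up to 6, filled up to 3 by the smallest p in old against young. Of the genes nearest in pattern, 3 were named per member and 5 for Cd22, with 2 given for Siglece; a few genes are not reported here. Marker genes named as examples, the promoter letters and the check of shared 50-base words were chosen after values were seen. Levels per kilobase used 2 to the power of the value and merged GENCODE M21 exons. Siglec15 and some other list genes were not analysed here. Figures were drawn with matplotlib 3.10.9. Alternatives covered filters, pseudocount, scaling, variance settings, weights, a replicate block, fits of 2 ages and leaving out each library.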

Additional observations from a re-analysis of the deposited data

How the results depend on the processing

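Of the 7 members over 3 pairs of ages, directions changed in 3 results, in 4 fits that each left out 1 library, all with values near 0. The Siglecg change in middle-aged against young became -0.04 without young replicate 3 and -0.061 without middle-aged replicate 2, the Siglec1 change in old against young -0.061 without old replicate 1, and the Siglece change in old against middle-aged 0.00876 without middle-aged replicate 2. Mag in old against young became -0.078 with array weights and -0.10 without old replicate 2, and Ctsa -0.077 with quantile normalization. In old against young, 3 members were called, and 1 to 3 with 1 library left out, 1 with only the 2 ages compared and 5 with array weights. Siglech was not called without the filter (-0.37, adjusted p = 0.0576) or with only the 2 ages compared (-0.37, 0.085), and its change lay between -0.41 and -0.31 with 1 library left out. Siglecf was not called with only the 2 ages compared (0.62, 0.0603), and its change lay between 0.55 and 0.69 with 1 library left out. Cd33 was called with quantile normalization (-0.40, 0.0358) and array weights (-0.31, 0.012), with a range of -0.45 to -0.26 with 1 library left out. Siglece was called without a variance trend (-0.36, 0.0492) and with array weights (-0.33, 0.0134). Array weights also called Cd22 in middle-aged against young (0.41, 0.0497; 1 member called). In old against middle-aged, 1 member, Cd22, was called with the stricter filter of 50 normalized counts (0.69, 0.0307), median centring (0.69, 0.0491), quantile normalization (0.70, 0.0498) and array weights (0.63, 0.0293). The causes were not tested. With 1 library left out, ranges were -0.06 to 0.12 for Siglecg in middle-aged against young, -0.06 to 0.24 for Siglec1 in old against young and -0.10 to 0.01 for Siglece in old against middle-aged.

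The main fit did not pair libraries by replicate number. After subtraction of each age's mean, correlations of same-numbered libraries ranged from -0.24 to 0.23, and those of differently numbered ones from -0.44 to 0.42. With 3 libraries per age these values cannot settle whether the numbers pair the libraries. With the replicate block 1 member was called in old against young, Cd22, while Siglech (-0.37, adjusted p = 0.0612) and Siglecf (0.62, adjusted p = 0.0503) were not. Over all genes the count in old against young was 185 with the block, 1609 with array weights, 170 without the filter and 153 with only those ages, against 299. In middle-aged against young it was 17, or 11, 312 and 10 with the first 3 of these and 29 with the stricter filter. In old against middle-aged it was 26, or 14, 62, 9 and 47, and 3 without a variance trend and 0 with only those ages. With 1 library left out, these counts were 84 to 322 in old against young, 4 to 49 in middle-aged against young and 3 to 23 in old against middle-aged. Read depth is unknown, so its limit on the low members Siglecg, Siglec1 and Siglecf is not known either.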
